A study of Mus musculus with 4 samples.

Results

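The genes of the cytosolic ribosome described here are the protein-coding mouse genes that encode its large subunit (symbols Rpl and Rplp) and its small subunit (symbols Rps and Rpsa). They were chosen by symbol from the GENCODE M21 annotation, with at least 20 counts summed over the 4 libraries and without pseudogenes. This left 81 of the 54532 genes of the count table, 49 of the large and 32 of the small subunit. Another 2 genes matched by symbol but fell below the minimum. Rpl10l, a testis paralog of Rpl10, had 0 counts in every library, and Rpl3l, a muscle paralog of Rpl3, had 2 counts, both in DCKO 2.

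RNA came from microdissected cranial neural tubes of mouse embryos at embryonic day 10.5, the rudiment of the brain, with 2 embryos per group. The DCKO embryos were Lats1 flox/flox; Lats2 flox/flox and carried the E2f1 Tg(Wnt1-cre)2Sor/+ transgene, in which the Wnt1 promoter drives Cre mainly in the dorsal neural tube and neural crest, so that other cells of the tissue keep both kinases. The Control embryos had no such transgene, and whether they carried floxed alleles is not given in the sources used here. Lats1 and Lats2 are the kinases of the Hippo pathway that restrain YAP, and the comparison asks how the neural tube transcriptome differs when they are lost.

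A ribosome holds 1 copy of nearly every ribosomal protein on a scaffold of ribosomal RNA, and growing cells make the proteins in matched amounts. Most of that matching is known to happen at translation and by removal of unused protein. Ribosomal protein mRNAs begin with a C followed by a run of pyrimidines, the terminal oligopyrimidine (TOP) motif, through which mTOR signalling and the factor Larp1 control their translation. They are among the most abundant mRNAs of a proliferating epithelium such as the early neural tube.

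Library totals ran from 41798361 to 55137810 counts. The span of chromosome 17 set by Gm26917, Gm42418 and CT010467.1, the last annotated as ribosomal RNA, is called the ribosomal RNA cluster here. Genes overlapping it held 13.2% and 12.4% of all counts in the Control libraries and 24.7% and 30.3% in the DCKO libraries. Paired values are given for embryo 1 and then embryo 2 of a group, and CPM are counts scaled by library depth. The p-values rest on the spread between 2 embryos a group, with variance estimates moderated over all genes. Where an embryo is left out, its group has only 1. Lats1 had 44.2 and 65.6 CPM (Control) against 30.02 and 29.7 (DCKO) (adjusted p = 0.0538, edgeR). Lats2 had 26.7 and 13.3 CPM (Control) against 21.2 and 35.3 (DCKO) (adjusted p = 0.426, edgeR), so the whole-gene counts of these targets did not separate the groups past the threshold, and which of their exons the counts come from was not examined. Xist, the RNA of the inactive X, had 10837 and 7786 counts in the Control libraries and 8 and 22 in the DCKO libraries, so the sex of the embryos and the genotype cannot be told apart. Of 10 neural progenitor markers, 8 fell in DCKO. Summed over the list of 10, their level ran from 3404 to 3840 CPM in Control and from 2116 to 2671 in DCKO. Vim, the largest item of the DCKO sums, went the other way without passing the test. It had 862 and 995 CPM (Control) against 1710 and 1301 (DCKO), so these sums understate the fall of the 8 genes. Of 9 tested surface ectoderm markers, 9 rose, with sums of 18.3 and 21.2 CPM (Control) against 349 and 469 (DCKO).

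Nearly every ribosomal protein gene stood modestly higher in the DCKO libraries, but few passed the test. With libraries scaled by the trimmed mean of M values (TMM), the median log2 fold change (also written log2 change) was 0.51 for the large subunit (interquartile range 0.37 to 0.60) and 0.53 for the small subunit (0.47 to 0.62), which correspond to 1.43-fold and 1.44-fold. Over all 19207 genes tested the median was 0.03, with an interquartile range of −0.52 to 0.65. A log2 fold change above 0 was found for 48 of 49 large subunit and 32 of 32 small subunit genes, against 51.2% of all genes. Without DCKO 1 the subunit medians were 0.32 and 0.38, and without DCKO 2 they were 0.70 and 0.67. In bulk tissue, a change in the share of cells of a type and a change in the RNA per cell cannot be told apart.

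Past the threshold of 0.05 on the Benjamini-Hochberg adjusted p of edgeR's quasi-likelihood test, 3 large subunit genes rose (Rpl12, Rpl10 and Rpl10a), 1 fell (Rpl7l1), and 2 small subunit genes rose (Rps12 and Rps25). No small subunit gene fell, and 0 were lower at an unadjusted p under 0.05 or with DESeq2. Over all genes tested 8.93% rose and 8.11% fell, so the 6.17% of the 81 genes that rose is near the background, and the 1.23% that fell lies below it. At an unadjusted p under 0.05, 24 large and 19 small subunit genes were higher, against 18.5% of all genes. With limma-voom 3 large and 5 small subunit genes were higher, against 9.43% of all genes, and with DESeq2 7 large and 9 small, against 11.8%. The number called depended on which embryo was left out, and the counts for each are given below. Without Control 1 the median log2 fold changes were 0.41 (large) and 0.43 (small), and without Control 2 they were 0.57 and 0.60. Both DCKO libraries lay above both Control libraries for 42 of 49 large and 30 of 32 small subunit genes, against 33.6% of all genes. The groups were the other way round for Rpl7l1 only, against 32.9% of all genes. They overlapped for 8 genes, 6 of the large subunit (Rpl11, Rpl21, Rpl27, Rpl35, Rpl37 and Rpl39l) and 2 of the small, among them Rps13.

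**Figure D1:**
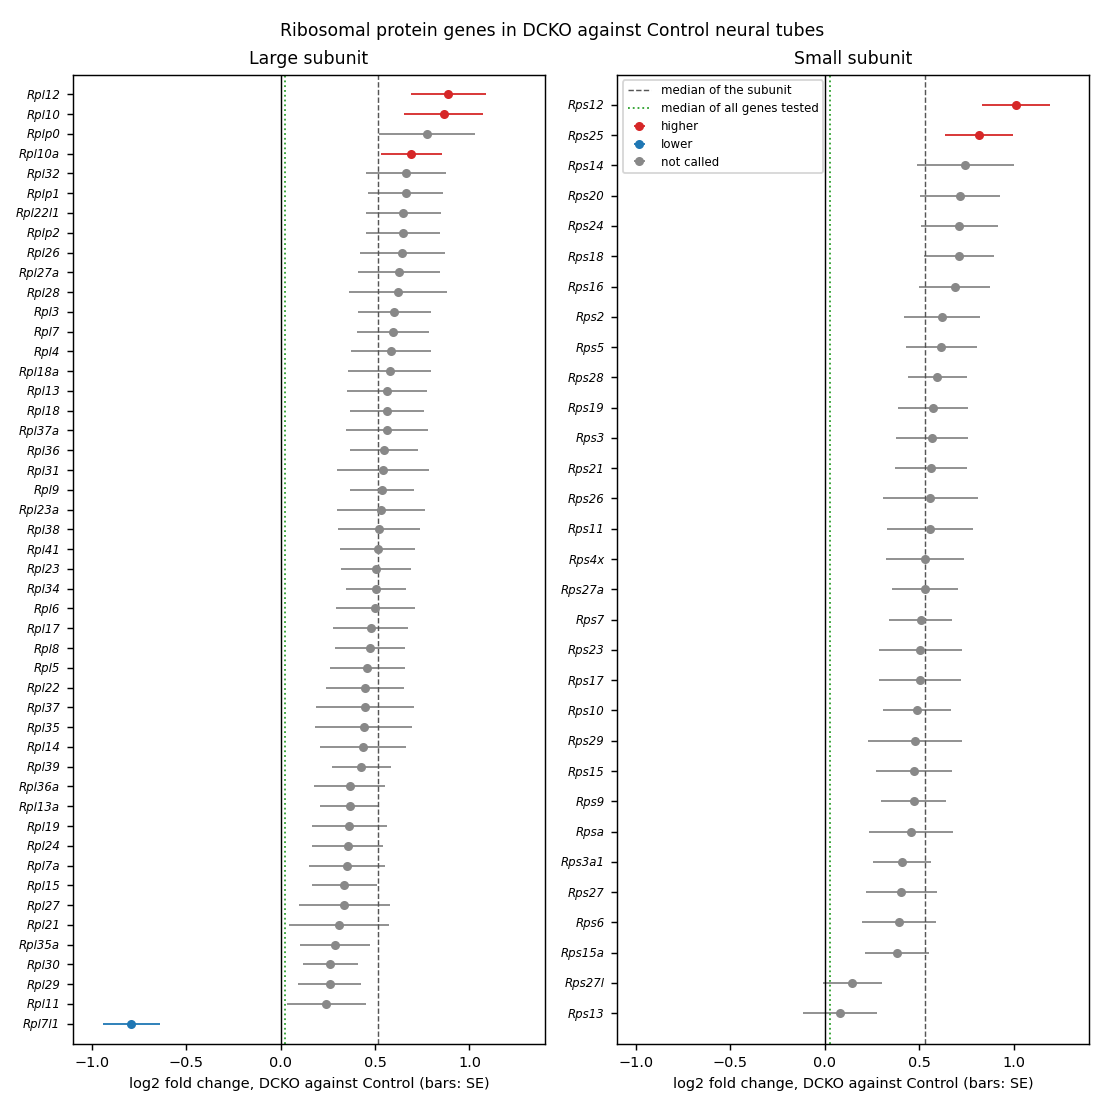
Log2 fold change of 48 large and 31 small subunit genes in DCKO against Control (x axis), with bars for the standard error, in order of size within each subunit. Rpl39l, with 0 to 16 counts a library, is not drawn. The genes cluster around the subunit medians of 0.51 and 0.53 (dashed), to the right of the median of all genes at 0.03 (dotted). Red marks the 5 genes that rose and blue Rpl7l1, which fell.

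The shift depends on what the counts are scaled to. With plain library totals the median of all genes moved to −0.32, and the medians of the subunits to 0.17 and 0.18, so that the distance to all genes remained 0.49 and 0.50. On that scale 41 of 49 large and 29 of 32 small subunit genes had a log2 fold change above 0. The groups then did not overlap, with DCKO higher, for only 9 large and 12 small subunit genes, against 20.99% of all genes. Summed over both subunits, the Control libraries held 5.23% and 5.89% of their total in these genes and the DCKO libraries 7.06% and 5.62%, and the groups overlapped. Without the ribosomal RNA cluster in the total, the shares were 6.02% and 6.72% for Control against 9.38% and 8.07% for DCKO, and the groups did not overlap. In TPM, the deposited abundance scaled by transcript length, the sum was 109218 and 102975 in Control and 133677 and 126157 in DCKO, a ratio of 1.22. An exact permutation test of 2 against 2 libraries cannot give a two-sided p below 0.33, and these sums were not tested.

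The DCKO embryos also differed from each other. DCKO 1 was above DCKO 2 for 73 of 81 genes, with a median log2 difference of 0.34, where the median over all genes was 0.00. Control 1 was above Control 2 for only 11 genes, with a median of −0.19. The genes with the higher level in DCKO 2 were Rpl9, Rpl15, Rpl34 and Rpl35a of the large and Rps2, Rps3, Rps3a1 and Rps14 of the small subunit. The groups lay apart in most genes, and the median gap of 0.34 between the DCKO embryos compares with the median of 0.52 between the groups.

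Markers of several cell types moved with the groups, and their sums differed between the embryos of a group. Cranial mesenchyme markers, of which 7 of 10 rose, summed to 3613 CPM in DCKO 1 and 1644 in DCKO 2, and to 552 and 563 in Control. Endothelial markers, of which 7 of 10 rose, summed to 903 and 523 CPM in the DCKO embryos and to 197 and 183 in Control. Pericyte markers, of which 6 of 9 tested rose and 1 fell, summed to 245 and 233 CPM in Control and to 596 and 819 in DCKO. Neural crest markers, of which 3 of 10 rose, summed to 195 and 236 CPM in Control and to 262 and 373 in DCKO. The sums of the pericyte and neural crest lists were higher in DCKO 2 than in DCKO 1, unlike those of the mesenchyme and endothelial lists. Gene by gene, DCKO 1 was above DCKO 2 for 5 of 9 tested pericyte markers and for 2 of 10 neural crest markers. Neuron markers, of which 4 of 10 fell, summed to 1100 and 1381 CPM in Control and to 696 and 284 in DCKO. Markers of red blood cells, of which 8 of 12 fell, summed to 2591 and 3839 CPM in Control and to 909 and 665 in DCKO. Of 10 markers of cycling cells 0 passed the test, 3 were lower at an unadjusted p under 0.05, and they summed to 3033 and 2734 CPM in Control and to 2657 and 2142 in DCKO. The part of these cells in the result was not tested.

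**Figure D2:**
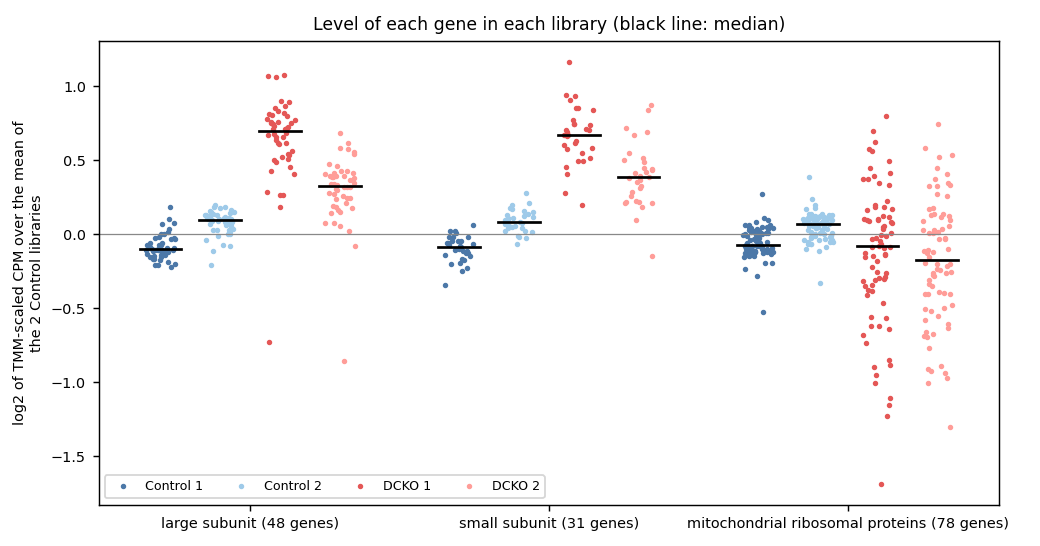
Level of each gene in each library, as log2 of its TMM-scaled CPM over the mean of the Control libraries (y axis), for 48 large subunit genes, 31 small subunit genes and the mitochondrial ribosomal proteins. Each point is 1 gene and black lines are medians. In both cytosolic subunits DCKO 1 is the highest library and DCKO 2 the next, while the mitochondrial genes spread to both sides of 0.

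Some of these genes have the TOP motif at their annotated start and others do not. Promoter windows of RefSeq (GRCm38.p6, 250 bases before to 50 bases after an annotated start) matched 61 of the 81 genes, with 72 windows. A gene with several windows was counted if any of them matched, and its longest run over them was used. The windows below run from 25 bases before the annotated start, with 20 bases from it, and capitals mark the longest pyrimidine run within 20 bases of the start. The first 4 are genes with a long run across the start, the textbook arrangement. The other 6 are the genes that passed the test, so that their starts can be set beside their values.
Rpl15, chr14:18270967-18271011, minus strand: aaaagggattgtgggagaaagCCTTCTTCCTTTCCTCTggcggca
Rpl35, chr2:39005112-39005156, minus strand: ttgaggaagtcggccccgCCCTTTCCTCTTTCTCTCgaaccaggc
Rps6, chr4:86857348-86857392, minus strand: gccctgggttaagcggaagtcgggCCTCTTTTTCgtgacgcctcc
Rps18, chr17:33955646-33955690, minus strand: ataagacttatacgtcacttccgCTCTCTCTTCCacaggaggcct
Rps12, chr10:23787190-23787234, minus strand: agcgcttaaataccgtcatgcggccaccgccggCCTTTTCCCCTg
Rps25, chr9:44407689-44407733, plus strand: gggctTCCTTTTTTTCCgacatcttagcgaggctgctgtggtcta
Rpl12, chr2:32961687-32961731, plus strand: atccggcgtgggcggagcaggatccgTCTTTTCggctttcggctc
Rpl10, chrX:74270791-74270835, plus strand: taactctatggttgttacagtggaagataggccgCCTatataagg
Rpl10a, chr17:28328446-28328490, plus strand: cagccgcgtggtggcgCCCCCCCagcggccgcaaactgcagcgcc
Rpl7l1, chr17:46782637-46782681, minus strand: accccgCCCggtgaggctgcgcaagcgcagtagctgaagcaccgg

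In Rpl15, Rpl35, Rps6 and Rps18 the run spans the annotated start, whereas in Rps12 and Rps25 the longest run lies some bases after and before it, and in Rpl10 and Rpl7l1 it is only 3 bases long. Rpl10a has another annotated start, not printed, where the longest run is 4 bases. A C at the annotated start followed by at least 4 pyrimidines (C or T) was found in 13 of 61 genes (21.3%), and in 3.01% of all 27025 genes with a window. A run of at least 7 pyrimidines within 20 bases of the start, on the sense strand, was found in 38 genes (62.3%), against 27.5% of all. The letters CTTCCG, the core bound by ETS family factors, stood on either strand of the window in 42 genes (68.9%). The share was 18.8% of all genes with a window and 24.2% of the protein-coding ones. The pyrimidines of these letters can overlap such a run. TATA between 40 and 21 bases before the start was found on the sense strand in 7 genes (11.5%), against 6.38%. A match to letters is a description and not a site, and an annotated start can lie some bases from the start in use.

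Genes with long and short runs had similar fold changes. The 38 genes with a run of at least 7 bases had a median log2 fold change of 0.53 and the 23 with a shorter run 0.51. Across these 61 genes the Spearman correlation of run length and log2 fold change was −0.02, a description of genes that share the same 4 libraries.

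Rps12, which encodes a protein of the head of the small subunit, had the largest difference of the 81 genes (chr10:23785183-23787275, minus strand, GRCm38). Its level was 351 and 341 CPM (Control) against 776 and 619 (DCKO). Both DCKO values were well above both Control values, which nearly coincided, and the log2 fold change was 1.01 (SE 0.18, adjusted p = 0.0234, edgeR). Across the alternative settings its adjusted p ranged from 0.000180 to 0.171, and leaving out either Control embryo ended the call.

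Rps25, a protein of the small subunit head needed for initiation at several viral and cellular internal entry sites, had 330 and 385 CPM (Control) against 684 and 577 (DCKO). The groups did not overlap, with a log2 change of 0.82 (SE 0.18, adjusted p = 0.0364, edgeR). The gene (chr9:44407139-44410427, plus strand) overlaps Trappc4 and Ccdc84, and whether strand was used in counting is not given in the sources used here.

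Rpl12, at the base of the stalk that receives the translation factors, had 685 and 755 CPM (Control) against 1511 and 1155 (DCKO). DCKO 1 was the highest library, the groups were apart, and the log2 fold change was 0.89 (SE 0.20, adjusted p = 0.0378, edgeR). The gene (chr2:32961559-32965345, plus strand) overlaps Lrsam1.

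Rpl10, which joins the large subunit late in its maturation, had 345 and 311 CPM (Control) against 690 and 503 (DCKO), a log2 change of 0.86 (SE 0.21, adjusted p = 0.0456, edgeR). It lies on the X (chrX:74270812-74273135, plus strand). Rpl10a, the protein of the mobile stalk at the exit site for transfer RNA, had 270 and 280 CPM (Control) against 478 and 410 (DCKO). Its groups were apart by more than the spread within either, with a log2 change of 0.69 (SE 0.16, adjusted p = 0.0429, edgeR; chr17:28328471-28331033, plus strand, overlapping CT025652.2).

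Without DCKO 1, the adjusted p of Rps25 was 0.0502, that of Rpl10 0.0614 and that of Rpl10a 0.0653, while Rps12 (0.0219), Rpl12 (0.0478) and Rpl7l1 (0.0225) passed, by the same edgeR test. Leaving out either Control embryo put the adjusted p-values of these 6 genes at 0.142 to 0.264, above the threshold. Scaled to library totals, the adjusted p was 0.0481 for Rps12 and 0.0110 for Rpl7l1, and from 0.0971 to 0.175 for the other 4 in the edgeR fit.

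Rpl7l1, a paralog of Rpl7 that acts in the maturation of the large subunit and is not a standard part of the finished ribosome, was the one gene that fell. Its level was 153 and 150 CPM (Control) against 91.6 and 83.7 (DCKO). The replicates of each group lay close together and the groups far apart, with a log2 change of −0.79 (SE 0.15, adjusted p = 0.0281, edgeR; chr17:46773907-46782672, minus strand, overlapping Gm26904). Rpl7 itself, a standard large subunit protein, had 761 and 792 CPM (Control) against 1328 and 1021 (DCKO), a log2 change of 0.60 (SE 0.19, adjusted p = 0.0854, edgeR).

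The 74 genes that did not pass, Rpl39l aside, had log2 fold changes from 0.08 to 0.77 with standard errors from 0.15 to 0.26. Over all 81 genes the median log2 fold change was 0.52 and the median standard error 0.20, in a fit with 2 residual degrees of freedom. The nearest to it were Rps18 (log2 fold change 0.71, adjusted p = 0.0539, edgeR) and Rps28 (0.60, adjusted p = 0.0540).

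The acidic stalk proteins, which recruit the elongation factors, had similar fold changes. Rplp0, the base of the stalk, had 1519 and 1653 CPM (Control) against 3316 and 2110 (DCKO), the widest gap between the DCKO embryos of the 3. The log2 fold change was 0.77 for Rplp0 (SE 0.25, adjusted p = 0.0917, edgeR), 0.66 for Rplp1 (adjusted p = 0.0728) and 0.65 for Rplp2 (adjusted p = 0.0757). In all 3 both DCKO libraries were above both Control libraries, and none passed the test.

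Rpl5 and Rpl11 form a particle with the small ribosomal RNA of the large subunit and, when free, bind Mdm2, the ubiquitin ligase of p53. Rpl5 had 640 and 669 CPM (Control) against 1030 and 770 (DCKO), a log2 change of 0.46 (adjusted p = 0.159, edgeR). Rpl11 had 389 and 475 CPM (Control) against 582 and 439 (DCKO). For Rpl11 the groups overlapped, because DCKO 2 was below Control 2, and its log2 fold change of 0.24 (adjusted p = 0.453, edgeR) fell to −0.11 with library totals and to −0.00 on TPM.

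In the small subunit, Rpsa, also known as a laminin receptor, had 1186 and 1434 CPM (Control) against 2074 and 1514 (DCKO) (log2 fold change 0.45, adjusted p = 0.204, edgeR). Rps27a, made as a fusion to ubiquitin, had 464 and 479 CPM (Control) against 752 and 608 (DCKO) (0.53, adjusted p = 0.0933, edgeR). Rps14, of the platform of the small subunit, had 759 and 1170 CPM (Control) against 1461 and 1768 (DCKO) (0.74, adjusted p = 0.102, edgeR). For Rps14 the Control mean was 965 ± 291 CPM (SD, n = 2), so a difference of this size did not pass beside that spread.

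The lowest log2 fold changes of the small subunit were those of Rps13 and Rps27l. Rps13 had 373 and 385 CPM (Control) against 459 and 341 (DCKO), so the DCKO embryos lay on either side of Control (log2 fold change 0.08, SE 0.19, adjusted p = 0.804, edgeR). Rps13 and Rps27l had log2 values of −0.27 and −0.20 with library totals. At the lower end of the large subunit, Rpl29 had 195 and 235 CPM (Control) against 258 and 258 (DCKO) (0.26, adjusted p = 0.313, edgeR; −0.09 with library totals).

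The value of Rps13 moves when the counts of its pseudogenes are added, and whether those counts are reads of Rps13 or transcripts of the pseudogenes was not tested. Its processed pseudogene Rps13-ps1 (chr8:87047689-87048226) had 923 and 654 counts (Control) against 5452 and 4010 (DCKO). These are 3.95% and 3.36% of the counts of Rps13 in Control and 29.7% and 31.8% in DCKO, and Rps13-ps1 rose by a log2 change of 3.15 (SE 0.20, adjusted p = 0.00583, edgeR). With the counts of its named pseudogenes added, Rps13 had 390 and 400 CPM (Control) against 597 and 451 (DCKO). The groups no longer overlapped, and the log2 fold change was 0.41 (adjusted p = 0.187, edgeR).

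The counts of another pseudogene differed more between embryos of a group than between groups. Rps2-ps10, on chromosome 18, had 5655 and 776 counts in the Control libraries and 11322 and 936 in the DCKO libraries, which is 7.16% and 0.94% of Rps2 in Control and 13.7% and 1.07% in DCKO. Rps2 had 1261 and 1635 CPM (Control) against 2068 and 2378 (DCKO), and 1353 and 1652 CPM (Control) against 2354 and 2406 (DCKO) with the named pseudogenes added. Its log2 fold change was then 0.66 (adjusted p = 0.0590, edgeR) in place of 0.62 (adjusted p = 0.0906). Over all members, named pseudogenes held 0.67% to 1.23% of the counts of their parents, and adding them gave subunit medians of 0.52 and 0.53.

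**Figure D3:**
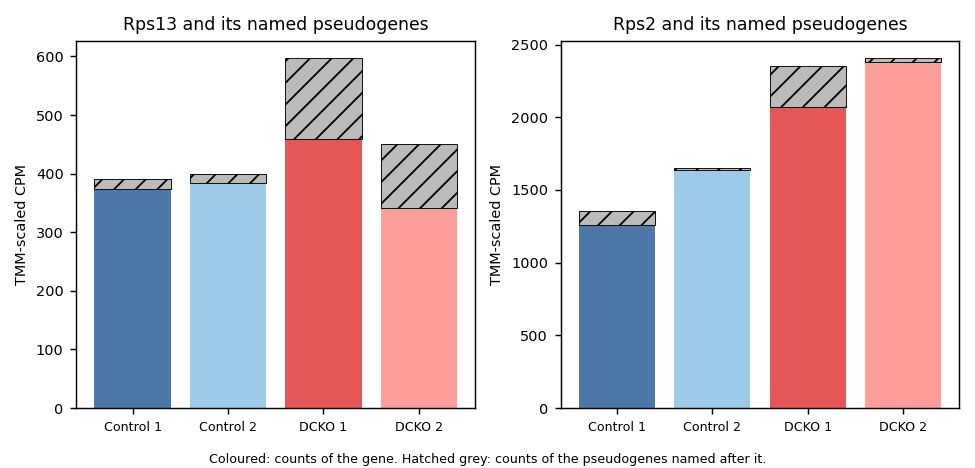
TMM-scaled CPM (y axis) of Rps13 and Rps2 in each library (coloured bars), with the counts of the pseudogenes named after each gene stacked on top (hatched). For Rps13 the hatched part is large in both DCKO libraries, and for Rps2 it is large in Control 1 and DCKO 1.

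Paralogs of ribosomal proteins had low CPM, a scale that does not take transcript length into account. By mean TPM, Rpl22l1 (244) stood above Rpl22 (191). Rps27l (281) stood below Rps27 (2420) but above Rps20 (237). Rpl22l1, which can replace Rpl22 in the ribosome, had 76.1 and 58.1 CPM (Control) against 113 and 97.7 (DCKO) (log2 fold change 0.65, adjusted p = 0.0781, edgeR). Rpl22 had 194 and 193 CPM (Control) against 309 and 220 (DCKO) (0.45, adjusted p = 0.185, edgeR). Rps27l, a p53 target in other settings, had 90.8 and 82.8 CPM (Control) against 99.5 and 92.6 (DCKO) (0.15, adjusted p = 0.545, edgeR), where Rps27 had a log2 change of 0.40 (adjusted p = 0.186). Rpl39l, a testis paralog of Rpl39, had 0 and 16 counts (Control) against 10 and 8 (DCKO). It is close to undetected, and its fold change cannot be read.

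The 4 X-linked genes lay within the range of the autosomal ones. The log2 fold change was 0.86 for Rpl10, 0.53 for Rps4x (adjusted p = 0.131, edgeR), 0.43 for Rpl39 (adjusted p = 0.112) and 0.37 for Rpl36a (adjusted p = 0.220). Rps4x had 962 and 985 CPM (Control) against 1630 and 1185 (DCKO). The genes are spread over 19 chromosomes, with 14 on chromosome 7 and 7 on chromosome 11.

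Levels per transcript length, in TPM, differed far more between genes than between groups. The median of the mean TPM over the 4 libraries was 1207 for the large and 1572 for the small subunit. The highest were Rplp1 (3855 TPM), Rps15 (3568), Rpl32 (3334), Rps29 (3227), Rps14 (2892) and Rpl23a (2813), the last a protein at the exit of the nascent chain tunnel. Rplp1 had 3416 and 3199 TPM (Control) against 4580 and 4223 (DCKO), and Rps15 had 3191 and 3365 in Control and 3844 and 3871 in DCKO, so that their ranges meet and their order depends on the library. The lowest standard ribosomal proteins were Rps15a (183 TPM), Rpl22 (191) and Rps20 (237), below Rps27l (281) and Rpl22l1 (244), with Rpl7l1 at 76.9 and Rpl39l at 0.404. A TPM depends on the transcript models and lengths used, and proteins that occur once per ribosome spread by more than 10-fold here. Across the 81 genes the Spearman correlation of log2 fold change and log2 mean TPM was 0.25, a description of genes in shared libraries.

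**Figure D4:**
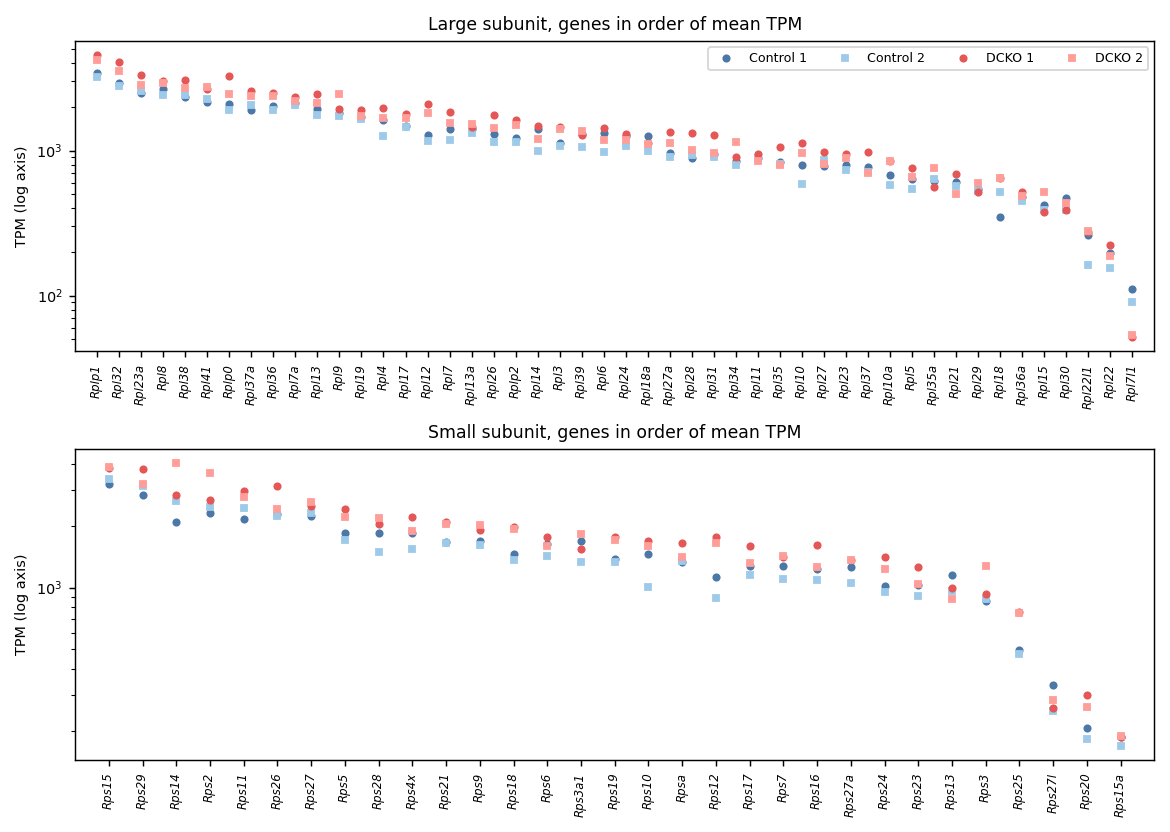
TPM of ribosomal protein genes (log axis) in each library, with genes in order of their mean. Drawn are 48 large subunit genes, without Rpl39l at 0.404 TPM, and 31 small subunit genes. Levels run from 3855 TPM for Rplp1 down to 76.9 for Rpl7l1, and the red points of DCKO are mostly above the blue points of Control, with DCKO below Control at Rpl7l1.

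The subunits kept about the same proportion. The summed large subunit counts were 1.35 and 1.30 times those of the small subunit in Control and 1.38 and 1.25 times in DCKO. On summed TPM the ratio was 1.27 and 1.23 in Control and 1.28 and 1.19 in DCKO. On both scales the DCKO embryos lay on either side of the Control embryos.

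Many ribosomal protein genes carry small nucleolar RNAs (snoRNAs), the guides of ribosomal RNA modification, in their introns. Here 30 of the 81 genes contained 58 snoRNA genes on the same strand. Their median log2 fold change was 0.54, and that of the 51 others 0.51. The noncoding snoRNA host genes, several of which also begin with a pyrimidine run, had a median of 1.06 over 9 tested of 10 listed, with 5 higher and 0 lower (8 and 0 at an unadjusted p under 0.05, 7 and 0 with DESeq2). Among them were Snhg1 (log2 fold change 1.76, adjusted p = 0.00806, edgeR), with 13.9 and 11.8 CPM (Control) against 42.1 and 44.8 (DCKO), Snhg6 (1.39, adjusted p = 0.0190), Snhg5 (1.08, adjusted p = 0.0253) and Gas5 (1.03, adjusted p = 0.0372). The direction of this list's median was the same with library totals, at 0.71, with 3 higher.

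The ribosomal proteins outside the symbol rule and the genes listed for translation elongation had medians close to those of the members. Of the 4 listed outside the symbol rule, 0 passed the test (1 at an unadjusted p under 0.05 and 1 with DESeq2), with a median log2 fold change of 0.48. Rack1, a scaffold on the head of the small subunit, had 1182 and 1365 CPM (Control) against 2362 and 1906 (DCKO) (0.75, adjusted p = 0.0537, edgeR). The 9 genes listed for translation elongation include Eef2k, Eef1e1 and Tpt1 beside the factors themselves. Among the 9, 1 rose and 0 fell (0 lower at an unadjusted p under 0.05 or with DESeq2), with a median of 0.59. With library totals 0 of them passed and the median was 0.24. Eef2, the translocase, had 2796 and 2721 CPM (Control) against 6065 and 4355 (DCKO) (0.92, adjusted p = 0.0453, edgeR). Eef1a1, which carries aminoacyl transfer RNA to the ribosome, had a log2 change of 0.66 and an adjusted p of 0.0770.

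Genes that make and assemble the ribosome passed the test in both directions, where 8.93% of all genes tested rose and 8.11% fell. Of 17 genes of RNA polymerase I and ribosomal DNA transcription, 2 rose (11.8%) and 4 fell (23.5%), with a median of −0.22. Taf1d rose from 77.7 and 92.3 CPM in Control to 200.4 and 325 in DCKO (log2 fold change 1.63, adjusted p = 0.0205, edgeR) and Taf1a rose by 1.16 (adjusted p = 0.0297), while Taf1c fell by 1.15 (adjusted p = 0.0262). Ubtf, the factor that keeps ribosomal DNA open, fell from 156 and 146 to 71.1 and 90.9 CPM (−0.90, adjusted p = 0.0316, edgeR). Tcof1, the Treacher Collins syndrome gene, with a role in ribosomal DNA transcription in neural crest precursors, had a log2 change of −0.88 (adjusted p = 0.0343) and Cd3eap one of −0.70 (adjusted p = 0.0493).

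Of 51 genes of ribosomal RNA processing and modification, 1 rose (1.96%, against 8.93% of all genes) and 4 fell (7.84%, against 8.11%). Their median of 0.13 turned to −0.22 with library totals and −0.10 on TPM. Npm1, the nucleolar chaperone, rose from 1162 and 937 to 1769 and 1715 CPM (0.73, adjusted p = 0.0486, edgeR). Tbl3 (−0.79, adjusted p = 0.0274, edgeR), Rpf2 (−0.91, adjusted p = 0.0279), Nip7 (−0.72, adjusted p = 0.0345) and Bop1 (−0.73, adjusted p = 0.0378) fell. Of 18 assembly chaperones and export factors, 0 rose (2 higher at an unadjusted p under 0.05, 0 with DESeq2). The 1 that fell (5.56%) was Grwd1 (−0.86, adjusted p = 0.0314, edgeR). The median of these 18 genes was 0.06, and it was −0.28 with library totals and −0.22 on TPM.

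Of 29 genes listed for translation initiation, 2 rose (6.90%, against 8.93% of all genes) and 1 fell (3.45%, against 8.11%). Their median was 0.26, and −0.09 with library totals. Eif4a2, an RNA helicase, had a log2 change of 1.11 (adjusted p = 0.0170, edgeR), Eif4b, its cofactor, 0.72 (adjusted p = 0.0488) and Eif1ax −0.69 (adjusted p = 0.0480). Of 16 genes of the growth control of ribosomal protein synthesis, 1 rose (6.25%) and 2 fell (12.5%). Eif4ebp1, an mTOR target that blocks cap-dependent initiation, rose from 28.6 and 25.6 CPM in Control to 162 and 178 in DCKO (2.65, adjusted p = 0.00583, edgeR). Eif4ebp2, its relative, had a log2 change of −1.08 (adjusted p = 0.0310) and Mtor, the kinase, −0.62 (adjusted p = 0.0473). Myc, a transcription factor that drives ribosome production, had 10.5 and 6.88 CPM (Control) against 17.8 and 16.4 (DCKO) and did not pass (0.97, adjusted p = 0.0627, edgeR). Mycn, of the same family, had 98.3 and 86.3 CPM (Control) against 90.6 and 123 (DCKO) (0.21, adjusted p = 0.510, edgeR). Larp1 had a log2 change of −0.13 (adjusted p = 0.685, edgeR). The median of the 16 genes was −0.005, and 8 lay above 0.

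The mitochondrial ribosome, built from a separate set of nuclear genes, is the closest comparison by function. Of its 78 genes, 0 rose and 8 fell (10.3%, against 8.11% of all genes); the median was −0.09 on the log2 scale and 28 lay above 0; at an unadjusted p under 0.05, 4 were higher and 15 lower, and DESeq2 called 1 higher and 12 lower. With library totals 0 were called higher and 25 lower, in a fit where 19.5% of all genes were lower. Mrpl41 had 27.9 and 33.1 CPM (Control) against 9.47 and 12.3 (DCKO) (−1.48, adjusted p = 0.0170, edgeR). Mrpl16 (−1.08, adjusted p = 0.0251), Mrps11 (−1.03, adjusted p = 0.0253) and Mrps12 (−1.04, adjusted p = 0.0267) also fell. The difference between the cytosolic and the mitochondrial genes was not tested, since genes are not replicates.

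**Figure D5:**
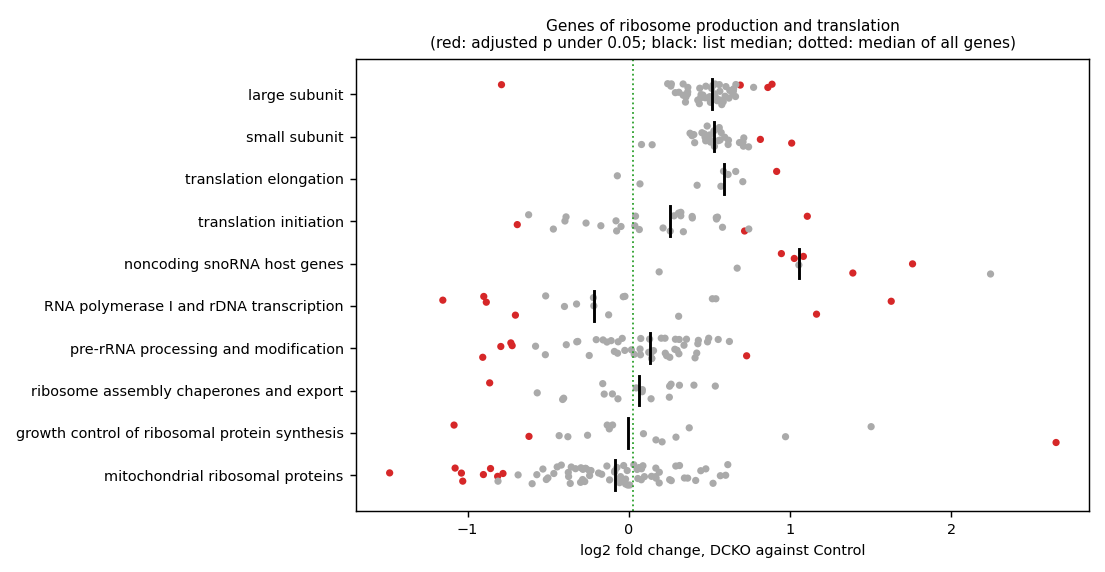
Log2 fold change in DCKO against Control (x axis) of 48 large and 31 small subunit genes and of the lists of translation and ribosome production. Red points have an adjusted p under 0.05, black bars are list medians and the dotted line is the median of all genes at 0.03. The cytosolic subunits form a narrow band around 0.5, the snoRNA host genes lie further right, and the mitochondrial genes are centred near 0. With library totals every list moves left, and the medians of initiation, processing and assembly genes turn below 0.

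In the authors' deposited table of differential expression, 80 of the 81 genes were listed, 48 of the large and 32 of the small subunit. Past a false discovery rate of 0.05 in the authors' deposited table, 9 large subunit genes were higher and 1 lower, and 8 small subunit genes were higher and 0 lower. Among all 12574 genes, the share in the authors' deposited table was 15.6% higher and 13.2% lower. The 21.3% of the listed genes that were higher there compares with 6.17% of the 81 in the edgeR test above. In the authors' deposited table the log2 fold change of Rps12 was 1.07 (false discovery rate 5.49e-04), that of Rpl10 0.92 and that of Rpl7l1 −0.73. The same libraries underlie both tables, so the second is a different processing of these counts and not a second measurement.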

How the data were processed

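The 81 genes and all lists were chosen with earlier results of these data known. The authors deposited read counts per Ensembl gene without scaling, TPM per gene, and a table with log2 fold changes, p-values and false discovery rates. Per the submitters' processing notes, the tools included R 3.3.2 with limma 3.30.13 and edgeR 3.16.5, TopHat2 2.1.1 and StringTie, and the builds GRCm38 and mm10; their roles, and whether counting used strand, are not given in the sources used here, although per the labels' protocols the library kit was stranded. Per the labels the RNA was polyadenylated, but the deposited counts include the ribosomal RNA cluster given above. Count columns named for the mutant were taken as the DCKO libraries.

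Counts were tested with edgeR 4.0.16 in R 4.3.3 (filterByExpr, minimum count 10, minimum total 15; 19207 genes; TMM factors of 1.14 and 1.12 in Control and 0.888 and 0.885 in DCKO; quasi-likelihood test, group as the only term, 2 residual degrees of freedom, two-sided). P-values were adjusted by Benjamini-Hochberg over all genes tested, with a threshold of 0.05. The SE is the size of the log2 fold change divided by the root of the F statistic. CPM are TMM-scaled. All 81 genes passed the filter. DESeq2 1.42.0, limma 3.58.1 (voom, and log2 of TPM plus 1 or 0.1), other scalings, pseudogene counts, left-out libraries and the replicate block were alternatives. The code was tested on simulated data. Named were all members past the threshold, the 3 highest and 3 lowest of each subunit, the 6 with the highest TPM, stalk proteins, Rpsa, Rpl5, Rpl11, Rps27a, X-linked genes and paralogs with their parents; of each pathway list, up to 4 called genes by p-value. Some genes of these sets are not reported here by name, nor drawn; they remain in the counts and medians. Rps2, Rps18, Rps28, Rps15a and Rps20 and the other genes named beyond this rule were chosen after their values were seen. Sequences are from RefSeq (GRCm38.p6) and coordinates of genes from GENCODE M21. The reads carry no molecular identifiers, so counts are not independent molecules.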

Additional observations from a re-analysis of the deposited data

How the results depend on the processing

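With library totals, 0 large and 1 small subunit genes were higher, the medians were 0.17 and 0.18, both DCKO libraries exceeded both Control libraries for 9 and 12 genes, and 1219 (6.35%) of all genes were higher and 3744 lower. DESeq2 called 7 large and 9 small subunit genes higher (11.8% of all genes) and 2678 of all genes lower; limma-voom called 5 small subunit genes higher (9.43% of all genes). On log2(TPM + 1) with a mean of at least 1, 1 large and 1 small subunit gene were higher, and 1007 of all 14784 genes in that fit (6.81%). With a pseudocount of 0.1 the counts were 1, 1 and 958 (6.48%). Without a filter they were 0, 0 and 0, and 0 large subunit genes and 0 of all genes were lower. The medians were 0.26 for the large and 0.28 for the small subunit in each TPM fit. On log2(TPM + 1) with a mean of at least 1, 44 of 48 large and 30 of 32 small subunit genes lay above 0. The median of all genes in that fit was −0.19. Without the ribosomal RNA cluster, the log2 ratio of the summed shares was 0.45 for the large and 0.46 for the small subunit, against 0.19 and 0.19.

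Leaving out 1 library gave 0 to 25 large and 0 to 15 small subunit genes higher, 0 to 1 large subunit genes lower, 155 to 2619 of all genes higher and 72 to 2565 lower; the remaining library of a group was assumed to vary like the other group. Without DCKO 2, 25 large and 15 small subunit genes were higher (12.8% of all genes). Without DCKO 1 these were 1 and 1 (10.9% of all genes), and without either Control embryo 0 and 0 (1.20% and 0.76% of all genes). Replicate numbers do not pair the embryos by the labels, and the deviations of same-numbered libraries had a correlation of −0.04. With the replicate number as a block, 0 large subunit genes were higher and 0 lower, and 1 small subunit gene was higher. Of all genes, 1002 (5.22%) were higher and 776 (4.04%) lower.

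Log2 fold changes turned for Rpl11 (−0.11 with library totals, −0.00112 in each TPM fit), Rpl29 (−0.0867, library totals), Rps13 (−0.27 with library totals, −0.17 in each TPM fit, −0.16 without DCKO 1), Rps27l (−0.20 with library totals, −0.10 in each TPM fit) and Rpl39l (−0.44 without Control 1, and 6.44 without Control 2). The cause was not tested. Of the other alternative values of the 29 named members, the only ones compared one by one, 448 kept their direction and side of the threshold, 37 lost the call and 15 gained it. Subunit medians were above that of all genes in every setting, by 0.29 to 0.72 for the large and 0.31 to 0.69 for the small subunit. The counts of genes above 0 and of genes with both DCKO above both Control libraries, and their alternatives, were added after seeing the data.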
